A study of Mus musculus with 20 samples.

Results

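The myeloid C-type lectin receptors described here are the products of 10 mouse genes, Clec4n, Clec4d, Clec4e, Clec7a, Clec5a, Clec4a2, Clec12a, Clec4a1, Clec4a3 and Clec10a, taken by symbol from 23090 genes in each count file. All 10 were found and all 10 passed the filter on low counts in every comparison. Clec4n was chosen because its expression was already known to be lower with the inhibitor in gMDSC alone, so all its values below are a description with no test. The other 9 were chosen as members of the same receptor family, and counts of changed receptors refer to these 9.

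Tumours were grown under the skin of female SCID.beige mice of 6 to 8 weeks, myeloid cells were sorted from the tumours, and the poly-A RNA of these cells was sequenced. SCID.beige mice lack T cells and B cells and have defective NK cells, so every group came from a host without adaptive immunity. The 20 libraries formed 4 groups of 5, namely gMDSC with CBPi-781, gMDSC with vehicle, mMDSC with CBPi-781 and mMDSC with vehicle. CBPi-781 is GNE-781, which blocks the bromodomains of CBP and EP300 (acetyltransferases that modify histones), dosed by mouth at 25 mg/kg BID for 7 days, and the vehicle was MCT. Both sorts took CD45+ CD11b+ Ly6C+ F4/80- cells, with Ly6G+ for gMDSC (granulocytic myeloid-derived suppressor cells) and Ly6G- for mMDSC (monocytic ones). The labels name MDA.MB.231-X1.1, a human breast cancer line, and CT26, a mouse colon carcinoma line, as tumours without giving the line of any library, so a difference between libraries and a difference between tumours cannot be told apart. Whether any libraries share a mouse is not stated either, so p-values measure the spread between these samples.

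C-type lectin receptors of myeloid cells bind sugars and lipids of fungi, mycobacteria and dying cells. Dectin-2 (Clec4n), MCL (Clec4d) and Mincle (Clec4e) signal through the adaptor FcR-gamma (Fcer1g), Clec5a signals through DAP12 (Tyrobp), and Dectin-1 (Clec7a) carries its own activating motif, and all of them feed the kinase Syk and the Card9, Bcl10 and Malt1 complex. Clec4a2 (DCIR) and Clec12a carry an inhibitory motif that recruits the phosphatases SHP-1 (Ptpn6) and SHP-2 (Ptpn11), Clec4a1 and Clec4a3 are relatives of Clec4a2, and Clec10a (MGL1) is a galactose-type lectin known as a marker of some macrophages and dendritic cells.

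The libraries held 12.37 to 26.64 M counted reads (M stands for 1e+06). Each receptor other than Clec10a had at least 636 reads in every library, whereas Clec10a had 0 to 658. Levels are given as CPM, the read count scaled to a library total of 1e+06 after TMM scaling. Of 10 neutrophil markers the summed level was 6961 to 13318 CPM in gMDSC with CBPi, 8627 to 34552 CPM in gMDSC with vehicle, 202 to 326 CPM in mMDSC with CBPi and 339 to 400 CPM in mMDSC with vehicle, and none of them was at 0 throughout a group. The transcript of the sorting marker Ly6g was low even in gMDSC, with 0.529 to 2.14 CPM with CBPi and 0.438 to 9.20 CPM with vehicle, against at most 0.404 CPM in mMDSC. Adgre1, which encodes the F4/80 protein that both sorts excluded, was at 438 CPM or above in every library, and the macrophage gene C1qa averaged 1903 CPM or more in every group. In bulk RNA, fewer cells of a type and less RNA per cell cannot be told apart.

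Clec5a and Clec12a were the receptors whose transcripts fell with the inhibitor in both cell types by at least 1.97-fold. Clec4n differed in gMDSC by 3.55-fold between inhibitor and vehicle. The receptors that set gMDSC apart from mMDSC without the inhibitor were Clec4d, Clec4e, Clec5a, Clec7a and, as a description, Clec4n. Clec4a1, Clec4a3, Clec12a and Clec10a were higher in mMDSC there. Of the 10 genes, 9 lie on chromosome 6 of GRCm38, and Clec10a lies on chromosome 11. Clec4a1 (122921848 to 122934619), Clec4a3 (122952515 to 122969878), Clec4a2 (123122690 to 123143999), Clec4n (123229843 to 123247024), Clec4d (123262107 to 123275268) and Clec4e (123281789 to 123289871) are neighbours in one cluster on that chromosome. Clec12a (129349783 to 129365303) and Clec7a (129461591 to 129472785) lie further along, and Clec5a (40574898 to 40585805) lies apart.

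The promoters of Clec5a and Clec12a are shown because these 2 transcripts fell in both cell types by at least 1.97-fold. That of Clec4e is shown because its transcript differed in neither beyond the threshold. Clec4a2 was also called lower in both, by a smaller fold, and its window is not printed. Each run is the 250 bases before the RefSeq start (GRCm38.p6), 5′ to 3′ on the strand of the gene, at chr6:40585806-40586055 (minus strand) for Clec5a, chr6:129349994-129350243 (plus strand) for Clec12a and chr6:123289872-123290121 (minus strand) for Clec4e. For Clec12a this start is inside the annotated span of the gene, which begins at 129349783. The bases just after the start were found near the 5′ end of a GENCODE M21 transcript of the gene for Clec5a and Clec12a. For Clec4e they were not, so its start is less certain. Capitals mark matches on either strand to the motifs searched.
Clec5a: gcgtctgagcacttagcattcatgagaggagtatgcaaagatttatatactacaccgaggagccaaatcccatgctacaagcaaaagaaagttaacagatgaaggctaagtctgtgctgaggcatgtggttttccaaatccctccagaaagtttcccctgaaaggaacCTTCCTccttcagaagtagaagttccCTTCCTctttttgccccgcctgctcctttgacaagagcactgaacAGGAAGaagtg
Clec12a: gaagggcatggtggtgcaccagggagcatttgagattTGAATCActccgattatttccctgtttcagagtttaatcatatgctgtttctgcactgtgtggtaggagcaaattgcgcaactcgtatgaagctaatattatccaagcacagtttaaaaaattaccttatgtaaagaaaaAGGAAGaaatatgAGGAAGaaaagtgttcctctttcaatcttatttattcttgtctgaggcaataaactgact
Clec4e: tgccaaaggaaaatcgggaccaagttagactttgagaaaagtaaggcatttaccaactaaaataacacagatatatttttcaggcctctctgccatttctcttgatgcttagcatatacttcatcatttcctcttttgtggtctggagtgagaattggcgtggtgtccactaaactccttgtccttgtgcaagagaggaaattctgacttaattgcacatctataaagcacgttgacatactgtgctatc
The motifs, chosen with the values known, were the PU.1 core AGGAAG, the C/EBP pattern TTGCNNNAA and the AP-1 pattern TGANTCA, and none of these overlapped another in the windows shown. On the opposite strand the PU.1 core reads CTTCCT. The Clec5a window held 3 matches to the PU.1 core, which ended 77, 51 and 6 bases before the start. The Clec12a window held 2 PU.1 cores and 1 AP-1 match, TGAATCA, and the Clec4e window held no match. Of 32851 RefSeq windows of this length, 29.5% held at least 1 PU.1 core, 6.25% at least 2 and 1.22% at least 3, and 6.75% held the AP-1 pattern. Of the 8 receptors with a window, 5 held a PU.1 core, namely Clec5a, Clec12a, Clec4a1, Clec4a3 and Clec4d. Of these, Clec4d did not pass in either cell type. The window of Clec4a2, which was called lower in both, held no match to any of the motifs. No window held the C/EBP pattern as searched, found in 8.29% of all windows. That pattern has 3 free bases and misses half-sites that stand closer together. The Clec12a window holds such a run, TTGCGCAA, which is TTGC followed directly by its reverse complement. It was not part of the search, so it is in lower case above and its share in all windows was not counted. A match is a run of letters and not a shown binding site.

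**Figure D1:**
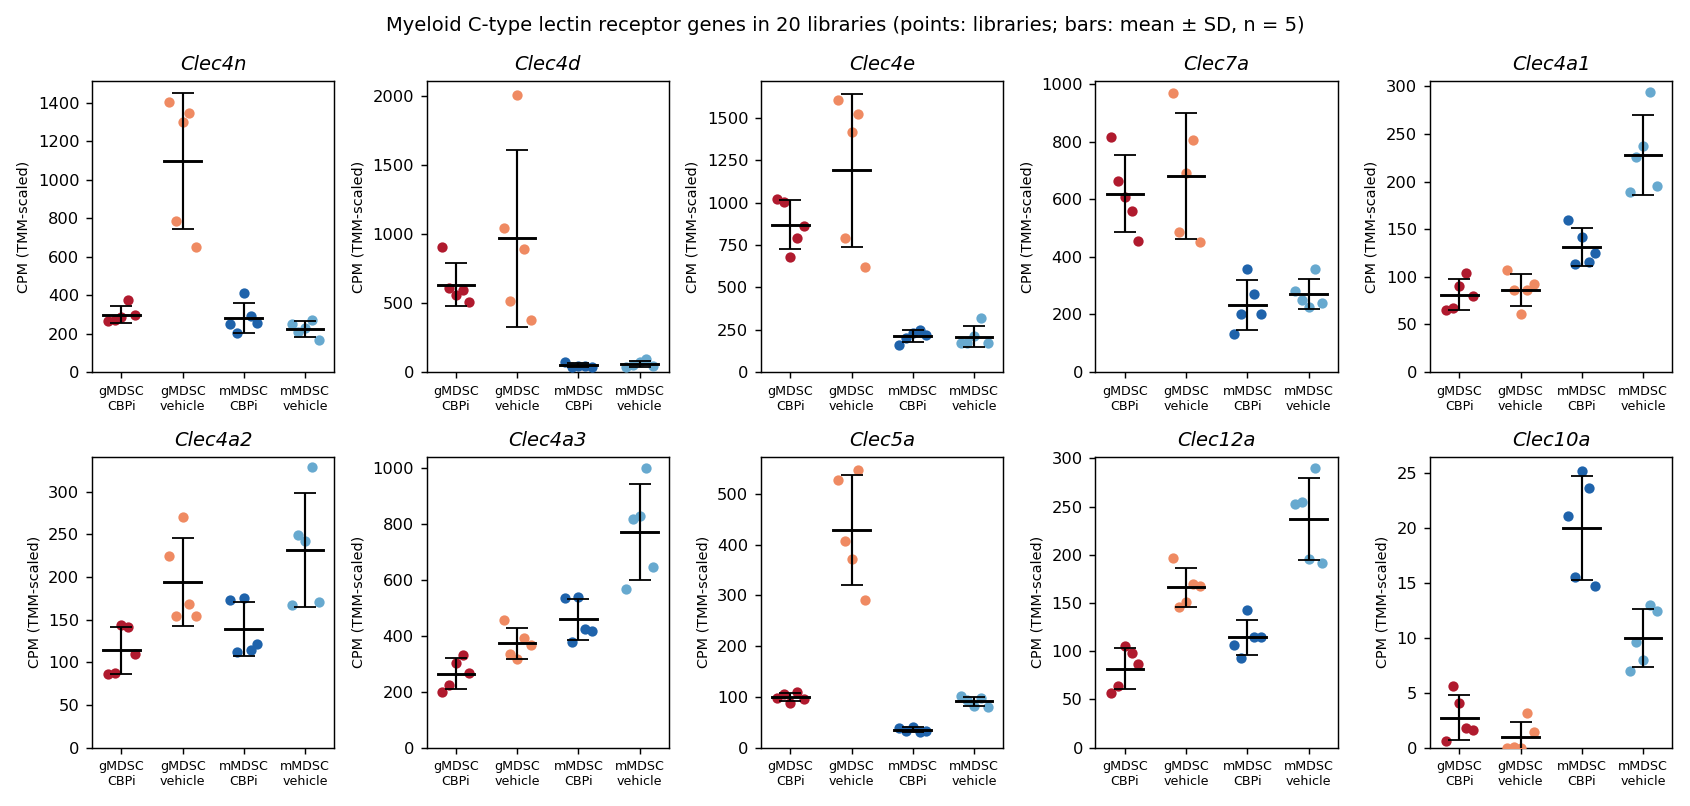
Level of each receptor gene (vertical axis, CPM of TMM-scaled totals, a separate scale for each gene) in the 5 libraries of gMDSC with CBPi, gMDSC with vehicle, mMDSC with CBPi and mMDSC with vehicle. Points are libraries and bars are the mean ± SD (n = 5). Clec5a lies at 88.5 to 109 CPM in gMDSC with CBPi, below all vehicle libraries at 291 to 547 CPM, and Clec4d lies at 380 CPM or above in every gMDSC library and at 94.1 CPM or below in every mMDSC library.

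To compare genes, levels were divided by the width given in the files and are stated as CPM per kb. In gMDSC with CBPi, Clec4e was the most abundant at 1349 ± 224 CPM per kb (SD, n = 5), ahead of Clec4d at 959 ± 239, Clec7a at 845 ± 181, Clec4n at 475 ± 69.8 and Clec4a3 at 371 ± 76.1 CPM per kb. In gMDSC with vehicle the order began with Clec4e at 1845 ± 701, Clec4n at 1742 ± 559, Clec4d at 1466 ± 972, Clec7a at 927 ± 298 and Clec5a at 748 ± 188 CPM per kb. In gMDSC with CBPi each of the 5 libraries gave this same order. The ranges of neighbours overlapped there, except those of Clec7a and Clec4n. Clec4d and Clec7a were close in some libraries, at 842 and 830 CPM per kb in CBPi 8. In gMDSC with vehicle the order of each pair of neighbours changed between libraries, so it is not fixed by the data. In mMDSC the first place went to Clec4a3, with 643 ± 104 CPM per kb with CBPi and 1081 ± 239 CPM per kb with vehicle. There it stood above Clec4n (448 ± 124) and Clec4e (329 ± 53.6 CPM per kb) with CBPi, and above Clec7a (370 ± 71.3) and Clec4n (356 ± 65.5 CPM per kb) with vehicle. In mMDSC with vehicle no Clec4a3 library overlapped those of the next genes, and those next genes overlapped one another. Clec10a was the lowest of the 10 everywhere, at 2.99 ± 2.25 CPM per kb in gMDSC with CBPi, 1.03 ± 1.52 in gMDSC with vehicle, 21.8 ± 5.16 in mMDSC with CBPi and 10.9 ± 2.86 CPM per kb in mMDSC with vehicle.

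With the inhibitor, gMDSC had less Clec5a, Clec12a and Clec4a2 transcript than with vehicle. None of the 9 tested receptors was higher. Clec4d, Clec4e, Clec7a, Clec4a1, Clec4a3 and Clec10a did not pass the test, and the vehicle libraries of Clec4d and Clec4e spread widely. Thus 3 of 9 were called lower and 0 of 9 higher by edgeR at an adjusted p under 0.05 (0 higher also at an unadjusted p under 0.05 and with DESeq2), where 5.52% of all 11694 genes tested were called lower, 4.18% higher and 9.71% either way. The median log2 fold change was -0.45 over the 9 and 0.00 over all genes.

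Clec4n, which encodes the FcR-gamma-coupled fungal mannan receptor Dectin-2, had 263, 272, 289, 374 and 299 CPM in gMDSC with CBPi (replicates 6 to 10), against 1405, 786, 1300, 1349 and 649 CPM with vehicle (replicates 1 to 5). Every vehicle library lay above every inhibitor library, with vehicle 2 and 5 well under the other vehicle libraries. Vehicle 2 and 5 also had the lowest summed neutrophil markers of that group, 11388 and 8627 CPM. Vehicle 1, 3 and 4 had 17967, 34552 and 16443 CPM, and the inhibitor libraries 6961 to 13318 CPM. The part of these marker levels in the receptor levels was not tested. The log2 fold change of Clec4n was -1.83 ± 0.22 (SE), which is 3.55-fold lower with the inhibitor. Clec4d, which encodes MCL, the partner of Mincle, had 906, 605, 556, 594 and 504 CPM with CBPi, against 1043, 513, 2008, 892 and 380 CPM with vehicle. These groups overlapped, vehicle 3 was the highest and vehicle 5 the lowest of the 10 libraries, and the log2 difference of -0.57 ± 0.36 did not pass (edgeR adjusted p = 0.351). Clec4e, which encodes Mincle, had 1018, 1004, 677, 789 and 863 CPM with CBPi, against 1604, 792, 1414, 1521 and 617 CPM with vehicle. Here too vehicle 2 and 5 fell within or below the inhibitor range, and the log2 difference of -0.40 ± 0.25 did not pass (edgeR adjusted p = 0.326). Clec7a, the beta-glucan receptor Dectin-1, averaged 620 ± 133 CPM with CBPi and 680 ± 219 CPM with vehicle (SD, n = 5 each), with a log2 difference of -0.09 ± 0.22 (edgeR adjusted p = 0.841).

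Clec5a, the DAP12-coupled receptor of granulocytes and monocytes, had 98.4, 105, 88.5, 109 and 96.3 CPM in gMDSC with CBPi, against 527, 406, 372, 547 and 291 CPM with vehicle. The groups were far apart, and the inhibitor libraries lay close together at 99.5 ± 8.05 CPM where the vehicle libraries spread over 429 ± 108 CPM (SD, n = 5 each). Clec5a fell by 2.06 ± 0.18 on the log2 scale, which is 4.18-fold lower (edgeR adjusted p = 2.23e-05), beside the value of -1.83 for Clec4n. Its promoter, with 3 PU.1 cores, is printed above.

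Clec12a, an inhibitory receptor for uric acid crystals and dead cells, had 56.7, 63.6, 105, 97.7 and 86.9 CPM in gMDSC with CBPi, against 197, 146, 151, 170 and 168 CPM with vehicle. No libraries overlapped, and it fell by 0.98 ± 0.19 on the log2 scale, 1.97-fold lower (edgeR adjusted p = 0.00666). Clec4a2, the inhibitory receptor DCIR, had 85.9, 88.1, 144, 142 and 110 CPM with CBPi, against 225, 155, 271, 169 and 154 CPM with vehicle. These libraries did not overlap either, though the nearest, at 144 CPM with CBPi and 154 CPM with vehicle, lay close, and Clec4a2 fell by 0.73 ± 0.21 on the log2 scale (edgeR adjusted p = 0.0455). That call was lost without any one of CBPi 6, 7 or 10 or vehicle 1, 2, 3 or 4, with edgeR adjusted p up to 0.123, and 21.3% of the 50-base stretches of its coding sequence recur in Clec4a4 or Clec4b1, so its reads could be divided between them. Groups without overlap were found for 12.2% of all genes tested in gMDSC.

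The 2 relatives of Clec4a2 did not pass in gMDSC. Clec4a3 averaged 265 ± 54.3 CPM with CBPi and 374 ± 55 CPM with vehicle (log2 difference -0.45 ± 0.17, edgeR adjusted p = 0.108). Clec4a1 averaged 81.1 ± 16.2 CPM with CBPi and 86.5 ± 16.7 CPM with vehicle (log2 difference -0.05 ± 0.19, edgeR adjusted p = 0.891). Clec10a had 0.583, 5.66, 4.06, 1.81 and 1.59 CPM with CBPi, against 0, 0.0845, 0, 3.18 and 1.45 CPM with vehicle, and its log2 difference of 1.56 ± 1.12 did not pass (edgeR adjusted p = 0.408). Marker levels of other cell types stood beside these values as follows. The summed level of 9 macrophage markers was 7106 to 12646 CPM with CBPi and 12732 to 20778 CPM with vehicle, and that of 9 dendritic cell markers was 249 to 366 CPM with CBPi and 469 to 670 CPM with vehicle, with no marker of either list at 0 throughout a group. Of the 8 macrophage markers tested, 0 were called (median log2 fold change -0.39). Itgax, an integrin gene, made up most of the dendritic cell sum, with 276 ± 47.6 CPM with CBPi and 545 ± 94.7 CPM with vehicle, and the list's median went the other way from the sum, at 0.31. Of its 7 genes tested, Itgax (log2 -0.95 ± 0.18, edgeR adjusted p = 0.00618) and Batf3 fell, and the chemokine receptor gene Ccr7 rose by 2.71 ± 0.80 (edgeR adjusted p = 0.0491). Of 8 monocyte markers 3 fell, namely Ccr2 (-2.64 ± 0.29, edgeR adjusted p = 0.000195), Ly6c2 and Cx3cr1, and 2 rose, namely F13a1 (3.36 ± 0.52, edgeR adjusted p = 0.00203) and Vcan. Of the 10 neutrophil markers 4 fell (Ngp, Camp, Ltf and Cxcr2) and 0 rose, with a median of -1.24. CBPi 6 and 7 had the lowest macrophage sums of gMDSC, 7106 and 8225 CPM, and also the lowest Clec12a, Clec4a1, Clec4a2 and Clec4a3 of the inhibitor libraries. The part of these marker levels in the differences was not tested.

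In mMDSC the inhibitor lowered the transcripts of 5 of the 9 receptors and raised 1. Clec5a, Clec12a, Clec4a1, Clec4a3 and Clec4a2 fell, Clec10a rose, and Clec4d, Clec4e and Clec7a did not pass. Across all 11912 genes tested 5.54% were called lower, 3.02% higher and 8.56% either way. The median log2 fold change was -0.74 over the 9 and 0.01 over all genes.

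Clec5a had 39.7, 33.8, 41.1, 31.7 and 33.1 CPM in mMDSC with CBPi, against 101, 94.5, 82.6, 98.4 and 79.4 CPM with vehicle. Every inhibitor library was below every vehicle library, and the fall was 1.36 ± 0.12 on the log2 scale, 2.56-fold (edgeR adjusted p = 3.83e-05). Clec12a had 106, 93.1, 143, 115 and 115 CPM with CBPi, against 253, 255, 196, 290 and 191 CPM with vehicle. It did not overlap between groups and fell by 1.06 ± 0.15 on the log2 scale, 2.08-fold (edgeR adjusted p = 0.000732). Groups without overlap were found for 9.76% of all genes tested in mMDSC.

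Clec4a1, which did not pass in gMDSC, had 160, 113, 142, 116 and 125 CPM in mMDSC with CBPi, against 189, 226, 237, 294 and 195 CPM with vehicle. The groups were apart and the fall was 0.81 ± 0.14 on the log2 scale (edgeR adjusted p = 0.00359). Clec4a3 had 534, 378, 541, 425 and 416 CPM with CBPi, against 567, 818, 829, 1001 and 645 CPM with vehicle, again without overlap. It fell by 0.76 ± 0.16 on the log2 scale (edgeR adjusted p = 0.00936). Clec4a2 had 173, 112, 175, 115 and 122 CPM with CBPi, against 167, 249, 242, 329 and 171 CPM with vehicle. Here CBPi 6 and 8 reached the range of vehicle 1 and 5, and the fall of 0.74 ± 0.20 on the log2 scale (edgeR adjusted p = 0.038) was lost without any one of CBPi 7, 9 or 10 or vehicle 2, 3 or 4, with edgeR adjusted p up to 0.0936.

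Clec10a, the galactose-type lectin, was the 1 receptor that rose. It had 21.1, 15.5, 25.2, 23.6 and 14.7 CPM in mMDSC with CBPi, against 6.97, 9.62, 8.02, 13 and 12.4 CPM with vehicle. All inhibitor libraries were above all vehicle libraries, and the log2 fold change was 0.99 ± 0.23, 1.98-fold (edgeR adjusted p = 0.0162). In a fit over all 20 libraries the same change of 1.00 did not pass (edgeR adjusted p = 0.514), and 22.1% of the 50-base stretches of its coding sequence recur in Mgl2, the gene of its close relative.

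The activating receptors Clec4d, Clec4e and Clec7a did not pass in mMDSC. Clec4d averaged 48.7 ± 14.2 CPM with CBPi and 59.4 ± 22.9 CPM with vehicle (log2 difference -0.30 ± 0.25, edgeR adjusted p = 0.539). Clec4e averaged 212 ± 34.6 CPM with CBPi and 209 ± 64.6 CPM with vehicle (log2 difference 0.01 ± 0.19, edgeR adjusted p = 0.987). Clec7a averaged 233 ± 85.3 CPM with CBPi and 271 ± 52.3 CPM with vehicle (log2 difference -0.23 ± 0.23, edgeR adjusted p = 0.598). Clec4n had 252, 201, 409, 291 and 257 CPM with CBPi, against 248, 206, 229, 273 and 165 CPM with vehicle, so its groups overlapped and its log2 difference was 0.32 ± 0.18. Beside these values, the summed macrophage markers were 6705 to 8848 CPM with CBPi and 8717 to 10966 CPM with vehicle. The sum of 8 monocyte markers was 4351 to 5666 CPM with CBPi and 5904 to 7117 CPM with vehicle, and the dendritic cell sum was 212 to 271 CPM with CBPi, where Xcr1 was at 0, and 359 to 550 CPM with vehicle. Itgax again made up most of that sum, with 170 ± 20.5 CPM with CBPi and 384 ± 88.3 CPM with vehicle, whereas the median of the 7 dendritic cell genes tested was 0.48. Of these 7, Itgax and Batf3 fell and 0 rose. Of the 8 macrophage markers tested, 4 fell and 1 rose (median -0.32). Of the 8 monocyte markers 3 fell, again Ccr2, Ly6c2 and Cx3cr1, and 0 rose (median -0.22). Of 8 neutrophil markers tested, Mmp8 fell and 0 rose. Their part was not tested.

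**Figure D2:**
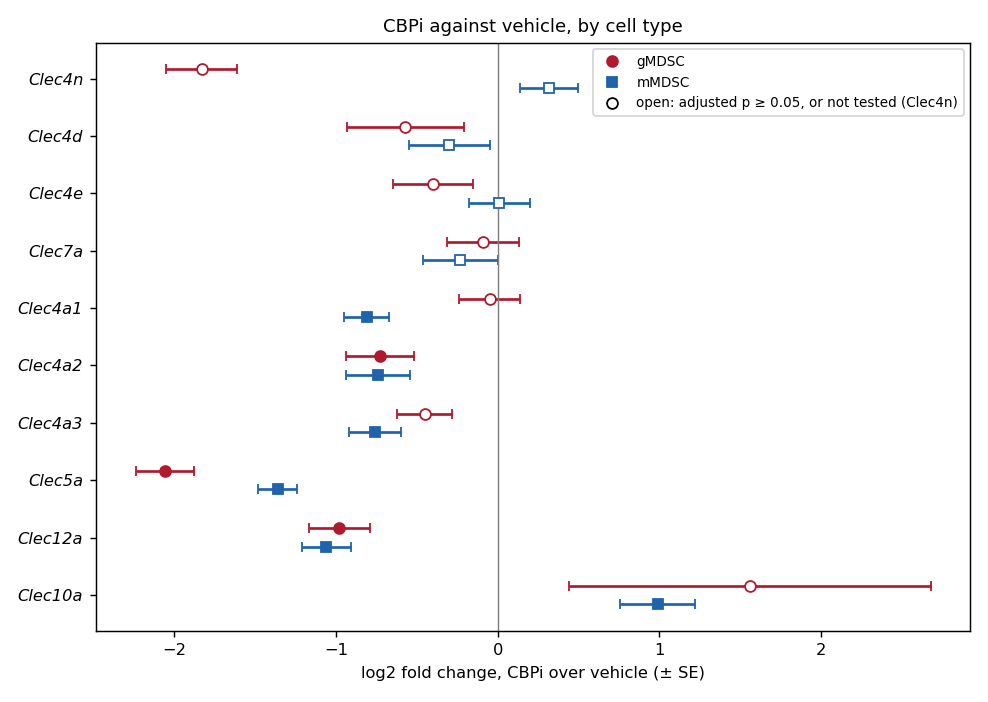
Log2 fold change of each receptor gene, CBPi over vehicle (horizontal axis, ± SE), in gMDSC (circles) and mMDSC (squares), from 5 libraries a group. Filled symbols passed an adjusted p of 0.05, and open ones did not or, for Clec4n, were not tested. Clec5a lies at -2.06 in gMDSC and -1.36 in mMDSC, and Clec4n at -1.83 in gMDSC and 0.32 in mMDSC.

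Whether a receptor responded differently in the cell types was asked with an interaction term, the response in gMDSC minus that in mMDSC. None of the 9 receptors passed, where 0.725% of 12688 genes did (0.497% with a higher and 0.229% with a lower response in gMDSC). At an unadjusted p under 0.05 edgeR had 2, where 1454 of all 12688 genes had one. DESeq2 called 1 at an adjusted p under 0.05, and 277 of all genes. Clec5a had a difference of -0.76 ± 0.21 on the log2 scale (edgeR adjusted p = 0.105, unadjusted 0.00167), so the fall was larger in gMDSC by an amount that missed the threshold. It passed without gMDSC vehicle 5 (edgeR adjusted p = 0.0369) and with DESeq2 (adjusted p = 0.034). Clec4a1 had a difference of 0.71 ± 0.24 in the other direction (edgeR adjusted p = 0.22, unadjusted 0.0072). For the other 7 the edgeR adjusted p was 0.644 or above, with -0.33 ± 0.48 for Clec4d, -0.47 ± 0.33 for Clec4e and 0.02 ± 0.24 for Clec12a. The errors of Clec4d and Clec4e are wide enough to hold a difference of the size seen for Clec5a. The value of Clec4n, on which it was chosen, was -2.20 ± 0.30.

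Between the cell types, gMDSC with vehicle had more transcript of the activating receptors Clec4d, Clec4e, Clec5a and Clec7a than mMDSC with vehicle, and less of Clec4a1, Clec4a3, Clec12a and Clec10a. Of the 9 receptors 4 were called higher and 4 lower, where 13.6% of 11576 genes were called higher, 8.08% lower and 21.7% either way, and 20.2% had groups without overlap. The median over the 9 was -0.24 and over all genes -0.06 on the log2 scale. Of 9 neutrophil markers tested, 5 were called higher in gMDSC and 0 lower. Of 8 monocyte markers 1 was higher and 6 were lower. Of 8 macrophage markers 3 were higher, namely C1qa, C1qb and C1qc, and 2 were lower. The part of these marker levels in the receptor differences was not tested.

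Clec4d was 16.3-fold higher in gMDSC with vehicle (log2 4.03 ± 0.45, edgeR adjusted p = 3.53e-05), with 380 to 2008 CPM in gMDSC against 39.9, 51.2, 70.3, 94.1 and 41.5 CPM in mMDSC. Even the lowest gMDSC vehicle library, replicate 5, lay above all of mMDSC. Clec4e was 5.69-fold higher (log2 2.51 ± 0.29, edgeR adjusted p = 4.9e-05), with 617 to 1604 CPM in gMDSC against 170, 170, 214, 320 and 173 CPM in mMDSC. Clec5a was 4.74-fold higher (log2 2.24 ± 0.18, edgeR adjusted p = 2.07e-06). Clec7a was 2.52-fold higher (log2 1.33 ± 0.22, edgeR adjusted p = 0.0007), with 450 to 969 CPM in gMDSC against 283, 250, 225, 357 and 241 CPM in mMDSC. These 4 had no overlap between the cell types. Clec4n, as a description, was 4.92-fold higher (log2 2.30 ± 0.23).

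Clec4a1 was 2.61-fold lower in gMDSC with vehicle than in mMDSC with vehicle (log2 -1.39 ± 0.18, edgeR adjusted p = 0.000131), and Clec4a3 was 2.05-fold lower (log2 -1.04 ± 0.18, edgeR adjusted p = 0.000886). Neither overlapped. Clec10a was 10.2-fold lower (log2 -3.36 ± 0.98, edgeR adjusted p = 0.0266). That call was lost without gMDSC vehicle 2 or mMDSC vehicle 2, 4 or 5, with edgeR adjusted p up to 0.0551. Clec12a was 1.41-fold lower with overlapping libraries (log2 -0.50 ± 0.15, edgeR adjusted p = 0.0365), a call lost without gMDSC vehicle 2, 4 or 5 or mMDSC vehicle 1, 2 or 4, with edgeR adjusted p up to 0.0858. Without gMDSC vehicle 2, mMDSC vehicle 2 or mMDSC vehicle 4, 2 of the 9 were called lower. Clec4a2 did not pass (log2 -0.24 ± 0.23, edgeR adjusted p = 0.511).

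With the inhibitor, the same 4 receptors, Clec4d, Clec4e, Clec5a and Clec7a, were higher in gMDSC than in mMDSC, and Clec4a1, Clec4a3 and Clec10a were lower. That is 4 of 9 higher and 3 of 9 lower, where 20.1% of 11895 genes were called higher, 19.1% lower and 39.2% either way, and 29.9% had groups without overlap. The median was -0.23 over the 9 and -0.05 over all genes on the log2 scale. Of 9 neutrophil markers tested, 7 were called higher in gMDSC and 0 lower. Of 8 monocyte markers 1 was higher and 6 were lower, and of 8 macrophage markers 3 were higher and 2 lower. Their part was not tested here either. Clec4d was 13.5-fold higher (log2 3.75 ± 0.22, edgeR adjusted p = 6.3e-08), with 504 to 906 CPM in gMDSC against 73.5, 39.7, 44.6, 46.7 and 39.1 CPM in mMDSC. Clec4e was 4.26-fold higher (log2 2.09 ± 0.15, edgeR adjusted p = 4.01e-07), Clec5a 2.88-fold (log2 1.52 ± 0.12, edgeR adjusted p = 8.31e-07) and Clec7a 2.76-fold (log2 1.47 ± 0.23, edgeR adjusted p = 0.000303). Clec10a was 6.98-fold lower (log2 -2.80 ± 0.46, edgeR adjusted p = 0.000364), Clec4a3 1.67-fold lower (log2 -0.74 ± 0.16, edgeR adjusted p = 0.00295) and Clec4a1 1.56-fold lower (log2 -0.64 ± 0.16, edgeR adjusted p = 0.00593). These 7 did not overlap. Clec12a had a log2 difference of -0.43 ± 0.18 (edgeR adjusted p = 0.0804), which passed without gMDSC CBPi 8 (edgeR adjusted p = 0.0375), and Clec4a2 one of -0.23 ± 0.19 (edgeR adjusted p = 0.37). Clec4n, 4.92-fold apart with vehicle, stood at 299 ± 44 CPM in gMDSC with CBPi and 282 ± 78.2 CPM in mMDSC with CBPi (SD, n = 5 each), a log2 difference of 0.14 ± 0.18 with overlapping libraries.

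**Figure D3:**
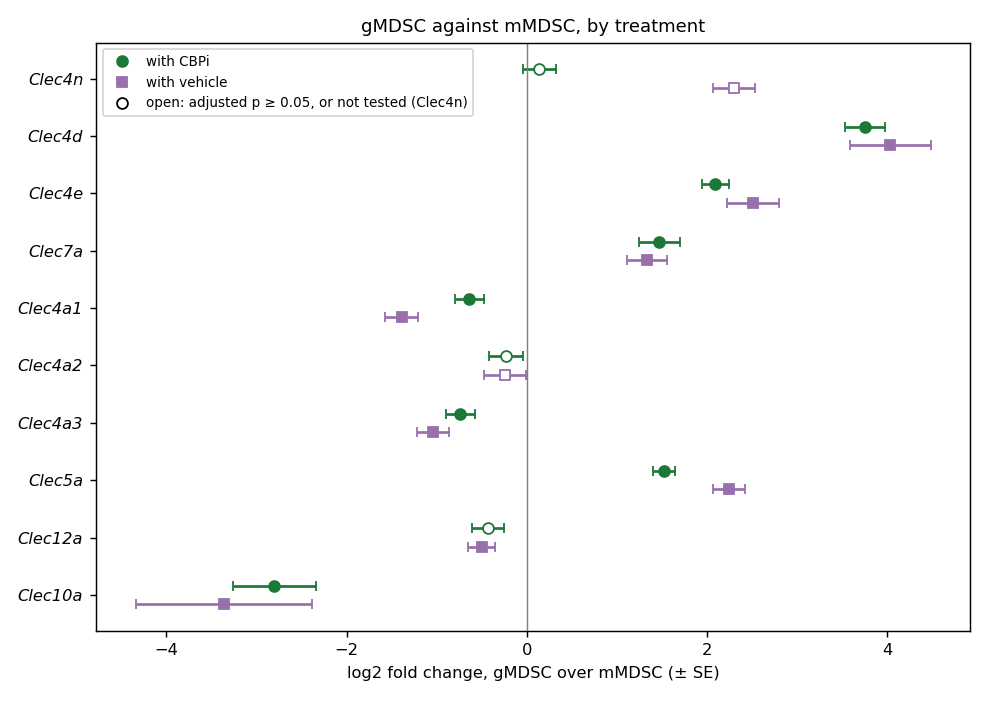
Log2 fold change of each receptor gene, gMDSC over mMDSC (horizontal axis, ± SE), with CBPi (circles) and with vehicle (squares), from 5 libraries a group. Filled symbols passed an adjusted p of 0.05, and open ones did not or, for Clec4n, were not tested. Clec4n lies at 0.14 with CBPi and 2.30 with vehicle, and Clec4d lies near 4 in both.

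Of the signalling genes that act below these receptors, a list of 26 adaptors, kinases and transducers was measured in full. In gMDSC 4 fell and 1 rose, with a median log2 fold change of -0.20, where 5.52% of all genes tested were called lower and 4.18% higher. Tyrobp, which encodes the adaptor DAP12 used by Clec5a, averaged 1485 ± 218 CPM with CBPi and 3244 ± 1645 CPM with vehicle and fell by 1.08 ± 0.27 on the log2 scale (edgeR adjusted p = 0.0261). Fcer1g, the FcR-gamma adaptor of Dectin-2 and Mincle, averaged 1298 ± 123 CPM with CBPi and 2345 ± 895 CPM with vehicle and fell by 0.81 ± 0.22 (edgeR adjusted p = 0.0384). Blnk, an adaptor that Syk phosphorylates, fell by 0.99 ± 0.16 (edgeR adjusted p = 0.00257), Vav1, an exchange factor for Rac, fell by 0.61 ± 0.15 (edgeR adjusted p = 0.0204), and its relative Vav3 rose by 0.69 ± 0.19 (edgeR adjusted p = 0.0405). The 4 that fell became 2 without CBPi 6, 7 or 8 or vehicle 1 and 1 without CBPi 10. The 1 that rose became 0 without CBPi 6, 7, 8 or 10 or vehicle 1, 2 or 4 and 2 without vehicle 3.

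In mMDSC 6 of the 26 fell and 0 rose with edgeR, with a median of -0.29, where 5.54% of all genes tested were called lower. At an unadjusted p under 0.05, 13 were lower and 0 higher, and DESeq2 called 10 lower and 0 higher. Of all 11912 genes tested, 2664 had an unadjusted p under 0.05 with edgeR and DESeq2 called 1647, in either direction. Blnk averaged 25.5 ± 4.04 CPM with CBPi and 73.7 ± 8.12 CPM with vehicle and fell by 1.54 ± 0.14 on the log2 scale (edgeR adjusted p = 4.01e-05). Fgr, a Src-family kinase, fell by 1.09 ± 0.12 (edgeR adjusted p = 0.00017), and Vav1 fell by 0.65 ± 0.13 (edgeR adjusted p = 0.00787). Of the 3 phosphatases recruited by inhibitory motifs, Ptpn6, which encodes SHP-1, was the 1 that fell in both cell types. It averaged 961 ± 59.5 CPM in gMDSC with CBPi and 1982 ± 223 CPM in gMDSC with vehicle, a fall of 1.00 ± 0.13 on the log2 scale (edgeR adjusted p = 0.000646). In mMDSC it averaged 722 ± 57.9 CPM with CBPi and 1235 ± 117 CPM with vehicle, a fall of 0.78 ± 0.10 (edgeR adjusted p = 0.000401). Between the cell types, 9 of the 26 signalling genes were higher in gMDSC and 0 lower with vehicle, and 13 were higher and 0 lower with the inhibitor. Of all genes tested, 13.6% were called higher and 8.08% lower with vehicle, and 20.1% higher and 19.1% lower with the inhibitor. DESeq2 called 0 lower with either, and at an unadjusted p under 0.05 edgeR had 1 lower with vehicle and 0 with the inhibitor. Of the called genes, the largest differences with vehicle were those of Blnk (log2 1.11 ± 0.15, edgeR adjusted p = 0.00017), Fgr (1.04 ± 0.14, edgeR adjusted p = 0.000169), Syk (1.00 ± 0.18, edgeR adjusted p = 0.00137) and Tyrobp (0.97 ± 0.30, edgeR adjusted p = 0.034). Syk, the kinase that all the activating receptors use, averaged 260 ± 29.1 CPM in gMDSC with vehicle and 132 ± 34.8 CPM in mMDSC with vehicle. In the interaction test edgeR called 0 of the 26 (5 at an unadjusted p under 0.05), and DESeq2 called 1. Of all 12688 genes in that test, 1454 had an unadjusted p under 0.05 with edgeR and DESeq2 called 277.

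Of the inflammatory genes that Dectins and Mincle can induce, and that many other receptors induce as well, the list held 23. In gMDSC 20 were tested, of which 7 rose, 0 fell and 13 did not pass (median 0.64), and in mMDSC all 23 were tested, of which 9 rose, 0 fell and 14 did not pass (median 0.81). Of all genes tested, 4.18% were called higher in gMDSC and 3.02% in mMDSC. None was lower in either cell type at an unadjusted p under 0.05, with edgeR, or at an adjusted p under 0.05 with DESeq2. Leaving out gMDSC vehicle 3 and 5 together, 1 was called lower in gMDSC. In gMDSC the chemokine gene Cxcl3 averaged 777 ± 436 CPM with CBPi and 71.8 ± 33.7 CPM with vehicle, a log2 fold change of 3.48 ± 0.40 (edgeR adjusted p = 0.000255). The cytokine gene Il6 (2.01 ± 0.49, edgeR adjusted p = 0.0212), the prostaglandin synthase gene Ptgs2 (1.77 ± 0.27, edgeR adjusted p = 0.002) and the chemokine gene Cxcl1 (1.26 ± 0.22, edgeR adjusted p = 0.00449) followed among the called genes. The 7 became 4 without CBPi 7. In mMDSC the transcription factor gene Egr3 averaged 4.65 ± 1.05 CPM with CBPi and 0.239 ± 0.105 CPM with vehicle, a log2 fold change of 4.23 ± 0.43 (edgeR adjusted p = 8.7e-05). Cxcl3 (1.73 ± 0.33, edgeR adjusted p = 0.00577), Egr1 (1.55 ± 0.24, edgeR adjusted p = 0.00154) and Cxcl1 (1.40 ± 0.21, edgeR adjusted p = 0.00139) came next among the called genes. Egr3 was the 1 gene of this list whose responses differed by the interaction test, at -3.55 ± 0.77 (edgeR adjusted p = 0.0344), and that call was lost without 11 of the 20 libraries in turn and in the fit with replicate number as a block. Between the cell types with vehicle, 12 of the 19 output genes tested were higher in gMDSC and 4 were lower. Among all genes tested there, 13.6% were called higher and 8.08% lower. Cxcl3 (log2 4.32 ± 0.40, edgeR adjusted p = 7.12e-06), Il23a (4.10 ± 0.45, edgeR adjusted p = 2.77e-05) and Il1a (3.61 ± 0.36, edgeR adjusted p = 1.33e-05) were, of the called genes, the furthest above mMDSC. Il6 was the furthest below of those called, with 3.98 ± 2.73 CPM in gMDSC and 74.1 ± 31.2 CPM in mMDSC (log2 -4.24 ± 0.51, edgeR adjusted p = 6.57e-05). With the inhibitor 14 of 22 were higher in gMDSC and 5 lower, where 20.1% of all genes tested were called higher and 19.1% lower. The 5 became 3 without gMDSC CBPi 7 or mMDSC CBPi 10.

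**Figure D4:**
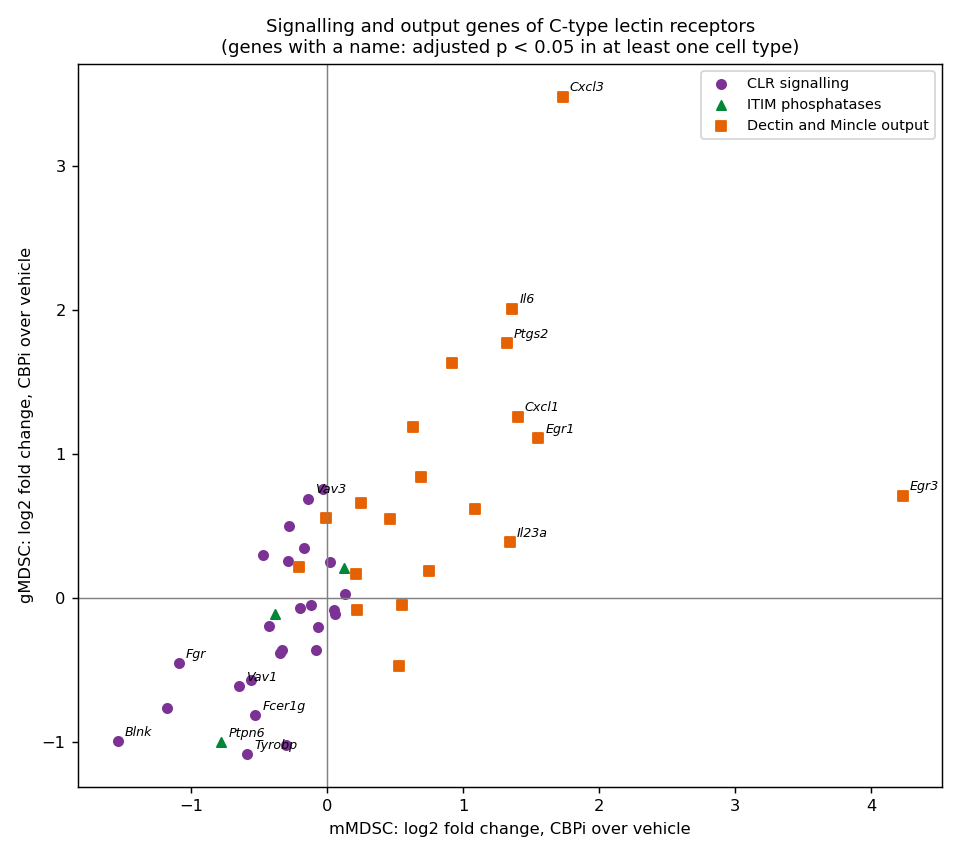
Log2 fold change, CBPi over vehicle, of signalling genes (circles), ITIM phosphatase genes (triangles) and output genes (squares) in gMDSC (vertical axis) and mMDSC (horizontal axis), for genes tested in both, with 1 signalling gene not shown. Genes with a name passed an adjusted p of 0.05 in at least 1 cell type, and some genes that passed carry no name. Cxcl3 lies at 3.48 in gMDSC and 1.73 in mMDSC, and Blnk at -0.99 in gMDSC and -1.54 in mMDSC.

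Of 48 other genes of C-type lectins and related receptors, 22 were tested in gMDSC, of which 3 fell and 1 rose (median 0.11), where 5.52% of all genes tested were called lower and 4.18% higher. Clec4b1, a gene of the same cluster on chromosome 6, averaged 27 ± 14 CPM with CBPi and 60.9 ± 9.08 CPM with vehicle and fell by 1.13 ± 0.30 on the log2 scale (edgeR adjusted p = 0.0315). Cd302 fell by 0.99 ± 0.22 (edgeR adjusted p = 0.0144) and Cd72, an inhibitory receptor, by 0.69 ± 0.18 (edgeR adjusted p = 0.0268). The 3 became 1 without CBPi 6, 7 or 10 or vehicle 1 or 4, and also without vehicle 3 and 5 together. In mMDSC 27 were tested, of which 3 fell and 2 rose (median 0.03), where 5.54% of all genes tested were called lower and 3.02% higher. Clec4b1 fell by 1.40 ± 0.29 (edgeR adjusted p = 0.00936) and Cd72 by 1.15 ± 0.09 (edgeR adjusted p = 1.19e-05). Mrc1, the macrophage mannose receptor gene, rose by 0.72 ± 0.17 (edgeR adjusted p = 0.0212), and Clec2i rose by 0.72 ± 0.19 (edgeR adjusted p = 0.0324). The 2 became 0 without vehicle 3 and 1 without any other single library except vehicle 4. Between the cell types with vehicle, 3 of the 23 tested were higher in gMDSC and 4 lower, among them Cd209a, a relative of the dendritic cell lectin DC-SIGN, with 0.827 ± 0.768 CPM in gMDSC and 10.4 ± 5.34 CPM in mMDSC (log2 -3.62 ± 0.89, edgeR adjusted p = 0.0112). The 4 became 2 without gMDSC vehicle 2 or mMDSC vehicle 2 or 5. With the inhibitor 6 of 26 were higher in gMDSC and 6 lower, and 3 were lower without mMDSC CBPi 8. The shares of all genes called were 20.1% higher and 19.1% lower with the inhibitor, and 13.6% higher and 8.08% lower with vehicle.

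Olr1, which encodes the oxidised lipoprotein receptor LOX-1, was the 1 lectin gene of the list whose responses in the cell types differed by the interaction test. In gMDSC it averaged 23.5 ± 6.38 CPM with CBPi and 12.2 ± 3.19 CPM with vehicle, a rise of 0.98 ± 0.27 on the log2 scale (edgeR adjusted p = 0.0355). In mMDSC it averaged 5.16 ± 0.99 CPM with CBPi and 10 ± 3.72 CPM with vehicle, a fall of 0.97 ± 0.27 (edgeR adjusted p = 0.041). The interaction was 1.90 ± 0.38 on the log2 scale (edgeR adjusted p = 0.0192) and was lost without gMDSC CBPi 7. The call of its rise in gMDSC was lost without CBPi 6, 7, 8 or 10 or vehicle 1, 2 or 5.

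The genes whose levels followed Clec4n most closely were named by the root mean square difference of log2 CPM, each gene centred on its own mean over the 20 libraries, among 7797 genes with a mean of at least 10 CPM. The 20 libraries share the group difference that Clec4n was chosen for, so the likeness is a description. Fam122a was nearest at 0.25 log2 units, with 43.6 ± 2.2 CPM in gMDSC with CBPi, 153 ± 58.8 CPM in gMDSC with vehicle, 41.4 ± 6.07 CPM in mMDSC with CBPi and 34.6 ± 12.6 CPM in mMDSC with vehicle. Ggct (0.44), Pilrb1 (0.44), Supt4b (0.45) and Rnf167 (0.45 log2 units) came next. Like Clec4n, each was lower in gMDSC vehicle 2 and 5 than in the other vehicle libraries of gMDSC. Vehicle 2 and 5 also had the lowest summed neutrophil markers of that group, and the part of this was not tested. No other receptor was among the 5 nearest. Of the 7797 genes, Clec7a ranked 269 at 0.71, Clec5a 294 at 0.72 and Clec4e 649 at 0.79 log2 units. In mMDSC Clec5a fell and Clec4n did not. Clec4n was chosen for a fall in gMDSC alone, so its side of this contrast was set by the choice.

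**Figure D5:**
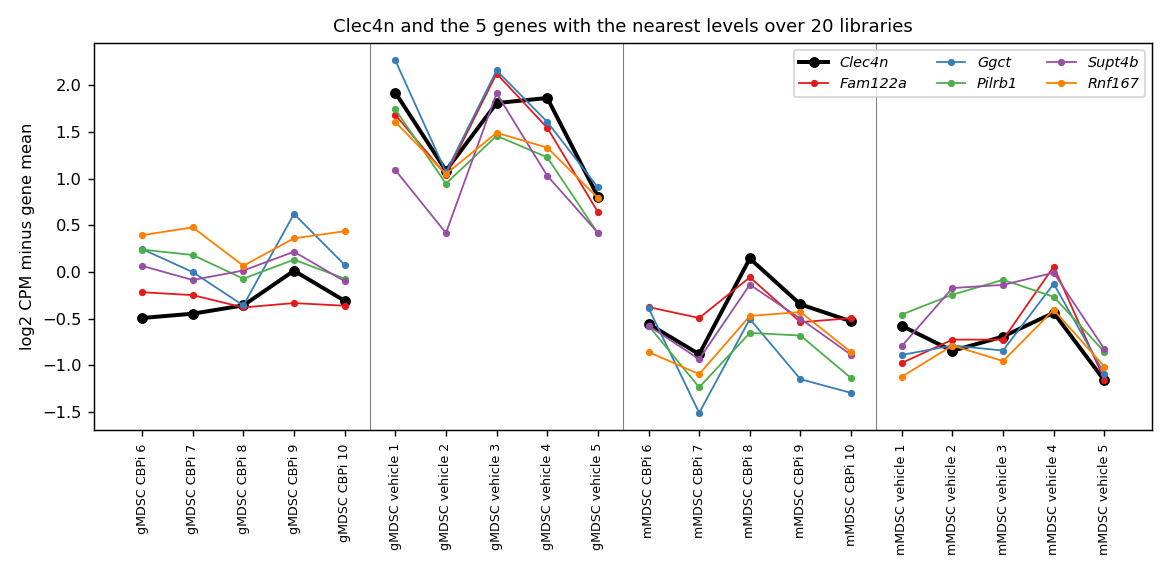
Log2 CPM minus the mean of the gene over the 20 libraries (vertical axis) for Clec4n (thick line) and its 5 nearest genes, in each library (horizontal axis, grouped by cell type and treatment). The 6 genes are high in gMDSC with vehicle, with dips in replicates 2 and 5, and Fam122a stays nearest to Clec4n at 0.25 log2 units.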

How the data were processed

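RNA was measured in 20 libraries, 5 in each of 4 groups. The deposited files give raw read counts per gene (23090 genes with an Entrez ID), made by the authors with GSNAP on GRCm38, per the submitters' processing notes; for the counter, the annotation and the strand setting the sources used here give nothing. The RPKM values that the authors deposited beside the counts were not used, and the width column of the deposited files served only for levels per kb. Symbols came from RefSeq (GRCm38.p6) for 21647 genes, and 1443 IDs matched none.

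Each comparison was tested with edgeR 4.0.16 (R 4.3.3; TMM, filterByExpr with a minimum count of 10 and total of 15, quasi-likelihood test, Benjamini-Hochberg over all genes tested), on its own 10 libraries, and the interaction on all 20. A call is an adjusted p under 0.05. Log2 fold changes are those of the fit at its default prior count. A prior count of 2 was used only for log2 CPM, in the likeness to Clec4n and in the correlations of same-numbered libraries. The test was checked on simulated data. Alternatives were DESeq2 1.42.0, other filters and scalings, 1 fit of all libraries, a replicate block and leaving out each library. Replicates differed by more than counting noise (within groups, chi-square over its degrees of freedom was 21.6 or more), so none was a duplicate. Reads shared between relatives were assessed by the share of coding 50-base stretches found in transcripts of another gene (GENCODE M21); each receptor except Clec4a2, Clec10a and Clec4n (1.59%) shared none.

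The receptors and the lists read beside them were chosen with earlier results of these data known. All receptors are named, with at most 4 called genes a list and comparison by size of change, and the 5 genes nearest to Clec4n with a mean of at least 10 CPM over all libraries. Vav1 in gMDSC and Mrc1 in mMDSC were named beyond that number, after their values were seen, and 1 signalling gene counted in its list is not reported by name here. Clec4n was to be tested between cell types and is given there as a description instead.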

Additional observations from a re-analysis of the deposited data

Results flagged for a closer look

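Of 40 sets of 5 libraries (10 receptors in 4 groups), 2 held a library far from the other 4 by Dixon's test, which flags about 1 in 20 sets by chance. Clec4d in gMDSC with CBPi stood at 906 CPM in replicate 6, where the other 4 lay at 504 to 605 CPM. Clec4d in mMDSC with CBPi stood at 73.5 CPM in replicate 6, where the other 4 lay at 39.1 to 46.7 CPM. The gMDSC CBPi 6 library also had the highest summed neutrophil markers of its group, 13318 CPM, and the part of this in its Clec4d level was not tested.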

How the results depend on the processing

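Of 347 called receptor values recomputed under an alternative, 0 turned direction and 29 lost the call, all of Clec4a2, Clec10a or Clec12a; the other 318 kept their direction and call. Genes called with the inhibitor numbered 1020 in mMDSC (1647 with DESeq2, 639 in 1 fit of all 20 libraries) and 1135 in gMDSC (1926 with DESeq2, 2182 in 1 fit of all 20, and 587 to 1394 leaving out single libraries, with 587 without CBPi 7 and 708 without CBPi 6). The interaction called 92 genes, 277 with DESeq2 and 34 to 111 leaving out single libraries (34 without gMDSC CBPi 7). Receptors called higher in mMDSC numbered 0 in 1 fit of all 20. Receptors with a lower interaction numbered 1 (Clec5a) with DESeq2, 1 without gMDSC vehicle 3 and 5 together (-0.96, edgeR adjusted p = 0.0146; a choice made after seeing the data), and 0 to 1 leaving out single libraries. Receptors lower in gMDSC than in mMDSC with vehicle numbered 2 to 4 leaving out single libraries. In 1 fit of all 20, 8 signalling genes fell and 2 rose in gMDSC, and 3 other lectin genes rose there and 0 in mMDSC. DESeq2 called 5 other lectin genes lower in mMDSC.

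Directions turned for small values only. Without gMDSC vehicle 3 and 5 the interaction was -0.05 for Clec7a, 0.05 for Clec4a2 and -0.01 for Clec12a. Leaving out single libraries gave -0.07 to 0.22 for Clec4e in mMDSC, -0.20 to 0.06 for Clec7a and -0.16 to 0.02 for Clec4a1 in gMDSC, and interactions of -0.53 to 0.13 for Clec4d, -0.03 to 0.37 for Clec7a, -0.14 to 0.14 for Clec4a2 and -0.08 to 0.19 for Clec12a. The cause was not tested.

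Same-numbered libraries of the cell types did not deviate together (correlations -0.03 to 0.17 over 10 pairs, 2 above 0.1, and 3 of 10 closest to their own number), and no label pairs them. With the replicate block the interaction called 52 genes, its value for Clec12a was -0.01, and Clec12a between cell types moved to -0.48 with vehicle (edgeR adjusted p = 0.0691) and -0.46 with the inhibitor (edgeR adjusted p = 0.0229). Clec10a, with 0 to 658 reads, is the receptor that depth limits.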
